A study of Mus musculus with 12 samples.

Results

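The 10 genes followed here are feedback regulators and direct targets of canonical Wnt signalling together with the nuclear effectors of the pathway: Lgr5, Znrf3, Rnf43, Notum, Nkd1, Axin2, Ctnnb1, Lef1, Tcf7 and Sp5. They were chosen by symbol, by a rule that uses no measured value although earlier results of these data were known, and all 10 were present among the 12845 genes of both deposited tables with a value in every library. Gonads were taken from E13.5 mouse embryos of the strain Oct4GFPxICR, sired by males carrying an Oct4GFP reporter, and dissociated cells were separated by their GFP into positive primordial germ cells (PGCs) and negative soma. For each sex, PGCs and soma were each sequenced as 3 libraries, 12 in all, without any drug or targeted allele, and the Oct4GFP background is shared by all 4 groups. The soma is every gonadal cell without the reporter signal and not a single cell type. How many embryos stand behind each library was not given in the sources used here, so p-values measure the spread between these libraries, which may be technical.

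In the canonical pathway, secreted Wnt ligands bind Frizzled and LRP receptors, the complex that destroys beta-catenin is disabled, and beta-catenin enters the nucleus and joins the DNA-binding proteins of the TCF/LEF family. Several of the genes switched on in this way act back on the pathway. ZNRF3 and RNF43 remove Frizzled receptors from the cell surface unless R-spondins engage them through LGR receptors, NOTUM strips the lipid that Wnt ligands need, and AXIN2 and NKD1 dampen the signal inside the cell. In the mouse gonad, RSPO1 and WNT4 are known for their part in the differentiation of the ovarian soma. In sorted bulk samples, fewer cells carrying a transcript and less transcript per cell cannot be told apart.

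Promoter sequence was available for 7 of the 10 genes in the RefSeq table for build GRCm38.p6, and 13 start sites were read as the 250 bases before the start. The core of the TCF/LEF element was searched on both strands as CTTTGAA or CTTTGAT, and also as CTTTGTA or CTTTGTT. Sp5, the gene with the largest PGC to soma ratio in males, and Axin2, a widely used reporter of Wnt signalling, are shown to compare a window with matches and a window without. Both are on the plus strand, Sp5 at chr2:70474673-70474922 and Axin2 at chr11:108920099-108920348, and the capitals mark the motif matches.
Sp5: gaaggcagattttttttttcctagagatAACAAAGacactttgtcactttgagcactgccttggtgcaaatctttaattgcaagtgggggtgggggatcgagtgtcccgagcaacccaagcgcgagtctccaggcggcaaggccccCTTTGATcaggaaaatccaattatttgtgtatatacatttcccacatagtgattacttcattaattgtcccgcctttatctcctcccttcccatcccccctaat
Axin2: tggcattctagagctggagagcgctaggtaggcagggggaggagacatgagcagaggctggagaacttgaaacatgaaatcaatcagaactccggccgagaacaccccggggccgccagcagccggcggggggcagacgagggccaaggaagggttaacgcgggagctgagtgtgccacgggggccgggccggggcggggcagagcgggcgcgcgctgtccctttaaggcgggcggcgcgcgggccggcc
The Sp5 window held 2 matches, AACAAAG at bases 222 to 216 before the start, which is CTTTGTT read from the other strand, and CTTTGAT at bases 104 to 98. Of the other windows, 1 of the 4 Lef1 start sites held a match, TACAAAG at bases 147 to 141, and those of Axin2, Nkd1, Rnf43, Ctnnb1 and Tcf7 held none. Across all 32851 promoter windows of that length, 14.8% held at least 1 match and 1.43% held 2 or more. Of the 13 windows of these genes, 2 held a match (15.4%), near the share of all windows. Whether any match is used was not tested. Lgr5, Znrf3 and Notum were not among the promoters used here.

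The libraries held between 6454322 and 24791414 reads in the tabulated genes. Levels are given in CPM (read counts scaled to one common library total), which were recovered from the deposited values. All 10 germ cell markers were higher in PGCs than in soma of the same sex, and their summed level in soma was 0.359% of the PGC level in males and 3.42% in females. In female soma that sum was 130, 226 and 42.1 CPM in replicates 1, 2 and 3. Markers of gonadal soma (Wt1, Nr5a1, Gata4, Lhx9, Emx2) summed to 1.6% of the soma level in male PGCs and 1.99% in female PGCs, where replicate 2 carried 31.6 CPM against 4.70 and 3.73 in the others. Sertoli markers in male PGCs reached 10.8% of their male soma level, and pregranulosa markers in female PGCs reached 8.4% of their female soma level. Male soma replicate 3 stood apart on the per-cell scale, with a library median of 5.25 on the log2 scale against 4.33 and 4.29. Counts of calls are therefore given also without male soma replicate 3, female PGC replicate 2 and female soma replicate 2, a choice made after the data were seen.

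Seen across groups, the genes fell into distinct patterns. Sp5 and Tcf7 were highest in PGCs of both sexes, and Lgr5 and Rnf43 were highest in female soma and close to absent from PGCs. Axin2, Nkd1, Notum and Znrf3 were higher in female than in male PGCs, by 3.1-fold, 10.3-fold, 6.41-fold and 2.04-fold in mean CPM, with no overlap between the groups' libraries. By read depth, 7 of the 10 genes passed the test as higher in female than in male soma and none as lower. Among the 7 are Lgr5 and Rnf43, which met the lowest level of the tabulated genes only through female soma. Of all genes, 13.3% were higher and 11% lower. Per cell, 3 passed as higher and 1, Ctnnb1, as lower, beside 2.86% and 63.6% of all genes. The plot of CPM by library shows every value behind these statements.

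**Figure D1:**
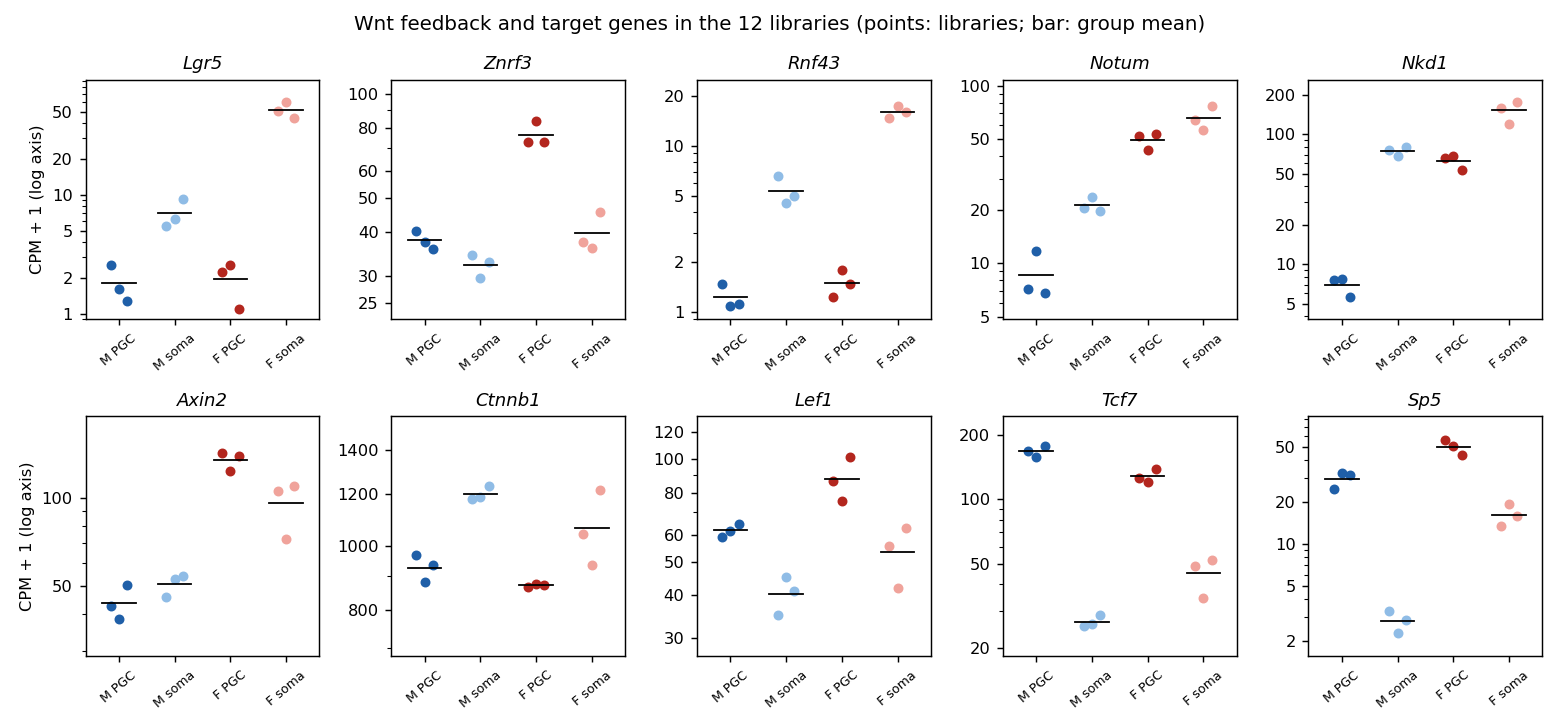
CPM + 1 on a log axis for each of the 10 genes in the 12 libraries, with 1 point per library and a bar at the mean of the 3 libraries of a group (M, male; F, female). Lgr5 and Rnf43 stand out in female soma, Sp5 and Tcf7 in PGCs of both sexes, and Axin2 and Znrf3 in female PGCs.

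Per kilobase of exon, the order of the genes differed between groups. In female PGCs, Ctnnb1 came first at 167.8 ± 0.823 RPKM, the CPM divided by exon length in kilobases (mean ± SD of 3 libraries), followed by Tcf7 at 48.7 ± 3.50. Axin2 at 24.4 ± 1.80, Sp5 at 23.4 ± 3.12 and Notum at 20.2 ± 2.27 followed, and the mean ± SD interval of Sp5 overlapped those of both others. Nkd1 stood at 13.51 ± 1.82, Lef1 at 9.88 ± 1.46 and Znrf3 at 9.53 ± 0.790, the last pair not separated by their spread, while Lgr5 and Rnf43 were under 0.1. In male PGCs, Ctnnb1 at 178.5 ± 8.43 and Tcf7 at 63.8 ± 3.77 again led, and Nkd1 came after Sp5, Axin2, Lef1, Znrf3 and Notum at 1.31 ± 0.255. Soma placed Nkd1 second in both sexes, at 16.2 ± 1.24 in males and 33.3 ± 6.39 in females, after Ctnnb1 at 230.8 ± 5.99 and 204.9 ± 27.2, but in female soma the interval of Notum, at 26.9 ± 4.20, overlapped that of Nkd1. Sp5 was at 0.863 ± 0.239 in male soma, next to Rnf43 at 0.663 ± 0.165 and Lgr5 at 0.584 ± 0.195, with overlapping intervals.

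Differences were tested with limma on the deposited values scaled to read depth, which are on the log2 scale, with Benjamini-Hochberg adjustment over all 12845 genes and a threshold of 0.05. In the male PGC to soma comparison, 9 of the 10 genes passed, 4 higher and 5 lower in PGCs, beside 82.8% of all genes (39.1% higher and 43.7% lower). In females, 9 passed, 5 higher and 4 lower, beside 81% of all genes (38.7% higher and 42.3% lower). Both counts lie near those shares. Between female and male soma 7 of 10 passed, all higher in females, where 24.4% of all genes passed and 13.3% were higher and 11% lower. Every gene had at least 5.07 CPM in 3 libraries, and Lgr5 and Rnf43, among these 7, met that level only through female soma. Their calls, and their part in the median below, are favoured by that level. Between female and male PGCs 7 passed, 5 higher and 2 lower in females, beside 65.2% of all genes (32.8% higher and 32.5% lower). The median difference of the 10 genes was 0.73 between female and male soma and 0.37 between female and male PGCs on the log2 scale, where the median of all genes was 0.01 in both. Each sex comparison shares libraries with the PGC to soma comparisons. Without the 3 libraries named above, the counts were 9 (4 higher and 5 lower) and 9 (5 and 4) for PGCs against soma in males and females, 8 (8 and 0) between the soma and 8 (6 and 2) between the PGCs of the sexes.

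Marker levels of several soma cell types did not overlap between the sexes. Summed erythroid markers were at 3360 to 8530 CPM in male soma and 17500 to 29400 in female soma. Macrophage markers were at 109 to 152 and 217 to 375, and mesonephric epithelium markers at 56.9 to 79.2 and 121 to 215. Emx2, which is also 1 of the gonadal soma markers, made up most of the mesonephric sum. It was 43.0 of a mean of 68.7 CPM in male soma and 107.5 of 167 in female soma. Leydig markers were at 3370 to 4710 CPM in male soma and 13 to 14.3 in female soma. The 5 gonadal soma markers summed to 1240 to 1310 and 529 to 794, but did not move together. In mean CPM of male and female soma, Nr5a1 (549.7 and 68.2), Gata4 (368.0 and 132.4) and Lhx9 (164.3 and 69.3) were lower in females. Wt1 (151.4 and 293.7) and Emx2 (43.0 and 107.5) were higher in females. The part of these cell types in the soma differences of the 10 genes was not tested.

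Log2 differences on this scale are compressed: the span of a gene's group means was between 0.376 (Rnf43) and 0.851 (Ctnnb1) of the span in log2 CPM. With limma's voom on the recovered reads, Rnf43 in male PGCs against soma was -4.23 in place of -1.27, and Sp5 was 4.24 in place of 2.54. Library medians of the read depth values also lay at 8.56 to 8.61 in PGCs and 8.80 to 8.82 in soma. A difference between PGCs and soma that is small on this scale depends on that offset, and the cases in which it does are named with the gene.

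**Figure D2:**
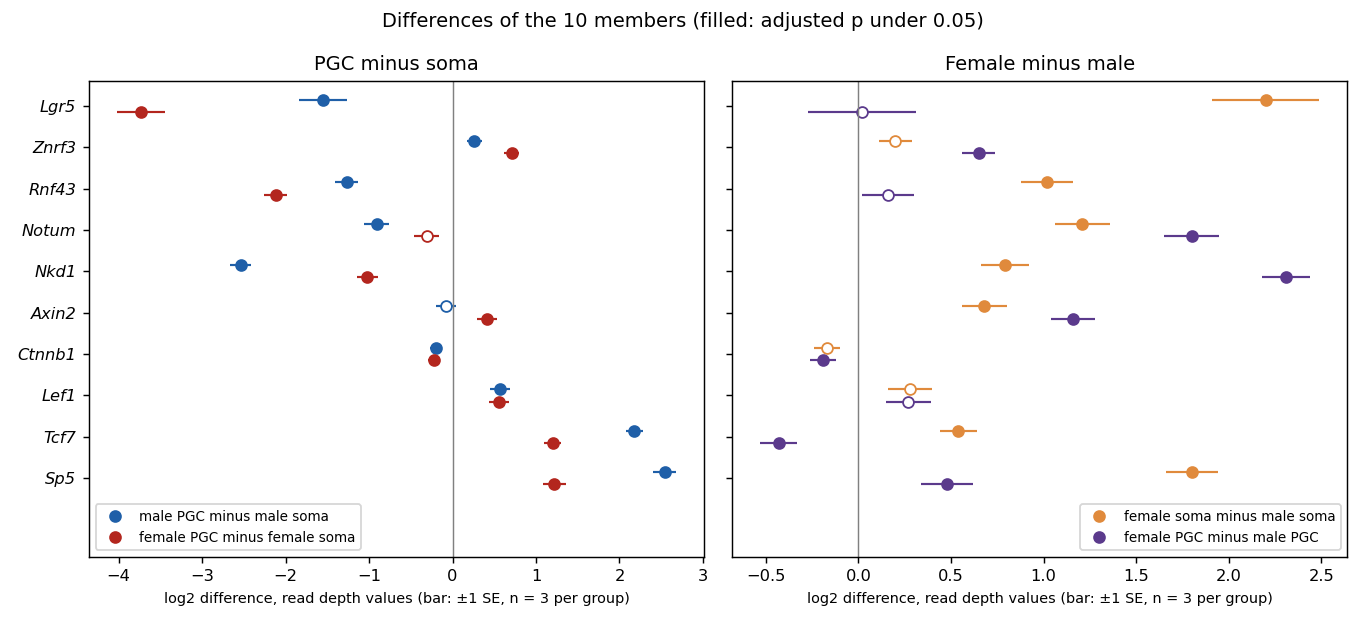
Log2 differences of the 10 genes in the read depth table, PGC minus soma within each sex (left) and female minus male within each cell population (right), as points with bars of 1 SE (3 libraries per group). Filled points passed an adjusted p of 0.05 over 12845 genes. In soma the 7 filled points all lie to the right of 0, among them Lgr5 and Rnf43, which met the lowest level of the tabulated genes only through female soma.

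Lgr5, which codes for a receptor of R-spondins, was a gene of the female soma. It measured 1.58, 0.615 and 0.282 CPM in male PGCs, 4.48, 5.24 and 8.27 in male soma, 1.253, 1.55 and 0.0956 in female PGCs and 49.4, 59.5 and 43.2 in female soma. Every female soma library was above every library of the other groups, and PGC libraries of the sexes overlapped. Female soma exceeded male soma 8.46-fold in mean CPM, and the log2 difference was 2.20 ± 0.29 (SE; adjusted p = 7.12e-05). PGCs were lower than soma by a log2 difference of -3.73 ± 0.29 in females (adjusted p = 2.65e-08) and -1.55 ± 0.29 in males (adjusted p = 0.000162). Between the PGCs of the sexes the difference was 0.02 ± 0.29 (adjusted p = 0.949), and its sign changed under other scalings. The PGC libraries rested on few reads, 33, 15 and 5 in males and 28, 10 and 1 in females. Every gene measured here had at least 5.07 CPM in 3 libraries. Outside female soma, Lgr5 reached that level only in male soma replicates 2 and 3, so it met it only through female soma, where it was highest.

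Rnf43, coding for one of the ligases that remove Wnt receptors, had a similar distribution at lower level. Its CPM was 0.478, 0.0820 and 0.113 in male PGCs, 5.57, 3.51 and 3.97 in male soma, 0.224, 0.775 and 0.478 in female PGCs and 13.8, 16.4 and 14.9 in female soma. The 3 female soma libraries were the highest, male soma came next without overlap, and the PGC libraries of the sexes overlapped at 10 reads or fewer each. The soma of females was 3.45-fold higher than that of males (log2 difference 1.02 ± 0.14, adjusted p = 0.000122), a difference that did not pass per cell. Rnf43 too met the level of 5.07 CPM in 3 libraries only through female soma, since elsewhere only male soma replicate 1 reached it. Germ cells were lower than soma by -2.12 ± 0.14 in females (adjusted p = 6.1e-09) and -1.27 ± 0.14 in males (adjusted p = 1.08e-06), and no difference between female and male PGCs passed (0.16 ± 0.14, adjusted p = 0.334).

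In relation to the soma of the same sex, these PGC levels were of the size of the soma markers found in PGCs. Lgr5 in female PGCs was at 1.91% of female soma and Rnf43 at 3.3%, and the 5 gonadal soma markers there ranged from 1.15% to 3.59%. In male PGCs Rnf43 stood at 5.16%, Nkd1 at 8.08% and Lgr5 at 13.8%, with the 5 Sertoli markers at 7.43% to 17.0% and the gonadal soma markers at 0.396% to 4.19%. Male PGC replicate 1 had the most Sertoli marker reads, 121 CPM in sum against 56.9 and 53 in replicates 2 and 3. In replicates 1, 2 and 3, Lgr5 was at 26.3%, 10.3% and 4.71% of the male soma mean, Rnf43 at 11%, 1.89% and 2.6% and Nkd1 at 8.87%, 9.11% and 6.27%. The part of soma RNA in these PGC values was not tested. The other members were above those ranges, the lowest being Notum in male PGCs at 37.3% and Nkd1 in female PGCs at 40.6%. Markers of other lists spread more widely. Leydig markers in male PGCs were at 0.0298% to 0.359%. Lhx1, of the mesonephric list, was at 1964% in male and 76.5% in female PGCs, and Aard, of the Sertoli list, at 121% in female PGCs. The 5 pregranulosa markers in female PGCs ranged from 2.58% to 27.7%, and all 5 (Foxl2, Fst, Wnt4, Rspo1 and Irx3) also stand in the lists of pathway genes, so they are no separate measure of soma RNA. Stroma markers were at 0.27% or less in sum in PGCs of either sex.

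**Figure D3:**
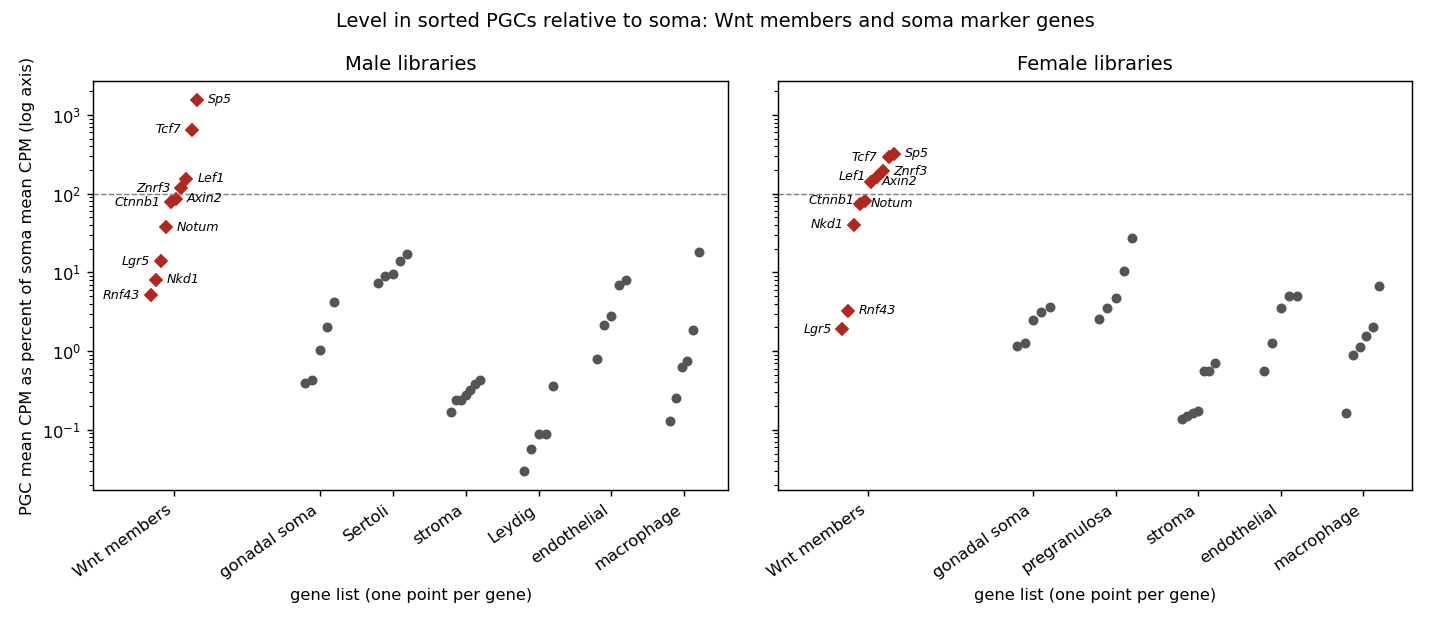
Mean CPM in PGCs as a percent of mean CPM in soma of the same sex (log axis), for the 10 Wnt genes (diamonds) and for marker genes of soma cell types (circles, 1 point per gene); the dashed line marks equal levels. Markers of mesonephric epithelium and erythroid cells are not drawn, nor are pregranulosa markers in males or Sertoli and Leydig markers in females. Lgr5 and Rnf43 lie among the drawn soma markers in both sexes and Nkd1 does so in males, while Sp5 and Tcf7 lie above the line.

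Znrf3, the second of the receptor-removing ligases, differed from Rnf43 in being present in all 4 groups. It stood at 39.4, 36.6 and 34.7 CPM in male PGCs, 33.3, 28.6 and 31.9 in male soma, 71.7, 82.4 and 71.5 in female PGCs and 36.6, 34.98 and 44.6 in female soma. The female PGC libraries were above all 9 others, which spanned 28.6 to 44.6 CPM. Female PGCs exceeded male PGCs by a log2 difference of 0.65 ± 0.09 (adjusted p = 2.56e-05) and female soma by 0.71 ± 0.09 (adjusted p = 5.56e-06). A smaller excess of male PGCs over male soma, 0.26 ± 0.09, passed (adjusted p = 0.0184) but did not without male PGC replicate 1 (adjusted p = 0.067) or male soma replicate 2 (adjusted p = 0.0719). The soma of the sexes did not overlap but the difference, 0.20 ± 0.09, did not pass (adjusted p = 0.14).

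Notum codes for the secreted enzyme that inactivates Wnt ligands. It was measured at 6.17, 10.8 and 5.82 CPM in male PGCs, 19.4, 22.8 and 18.7 in male soma, 51.1, 42.3 and 52.3 in female PGCs and 62.9, 55.7 and 75.7 in female soma. The order was the same in every library: male PGCs below male soma, then female PGCs, then female soma, without overlap. Both sex differences passed, at 1.80 ± 0.15 in PGCs (adjusted p = 1.7e-07) and 1.21 ± 0.15 in soma (adjusted p = 4.07e-05). Male PGCs were below male soma (-0.91 ± 0.15, adjusted p = 5.12e-05). In females the difference of -0.31 ± 0.15 did not pass (adjusted p = 0.0648), although it did under 5 of 22 alternatives, whose adjusted p ranged from 0.0183 to 0.512, among them leaving out female soma replicate 2 (adjusted p = 0.0352) or male PGC replicate 2 (adjusted p = 0.0183).

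Nkd1, whose product binds Dishevelled and restrains the signal, had the widest gap of the 10 genes between the PGCs of the sexes. Its levels were 6.55, 6.73 and 4.63 CPM in male PGCs, 74.8, 67.8 and 79.0 in male soma, 65.3, 67.4 and 52.1 in female PGCs and 159.5, 119.5 and 176.2 in female soma. Male PGCs lay roughly an order of magnitude below every other group, and female PGCs lay just under the male soma range without overlap. The log2 difference between female and male PGCs was 2.31 ± 0.13 (adjusted p = 6.93e-09). Against soma, PGCs were lower by -2.54 ± 0.13 in males (adjusted p = 3.41e-10) and -1.02 ± 0.13 in females (adjusted p = 5.28e-06). Female soma was 2.05-fold above male soma (0.79 ± 0.13, adjusted p = 0.000551), a difference that did not pass per cell.

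Axin2 codes for the inducible scaffold of the beta-catenin destruction complex. It measured 41.7, 37.4 and 49.2 CPM in male PGCs, 44.7, 52.0 and 53.0 in male soma, 141.7, 123 and 138 in female PGCs and 104.6, 71.7 and 109.1 in female soma. Each female library was above each male one, and the female PGC libraries were the highest. The log2 difference between female and male PGCs was 1.16 ± 0.12 (adjusted p = 1.24e-06), and between female and male soma 0.68 ± 0.12 (adjusted p = 0.000818). Per cell, the soma difference did not pass (0.01 ± 0.29, adjusted p = 0.975). Female PGCs exceeded female soma by 0.41 ± 0.12 (adjusted p = 0.00563), or 0.25 without female soma replicate 2 (adjusted p = 0.0231). In males the groups overlapped, and the difference of -0.08 ± 0.12 did not pass (adjusted p = 0.531) and took the opposite sign, 0.17, when library medians were made equal.

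The effectors of the pathway were measured in all libraries. Ctnnb1, coding for beta-catenin, whose activity is set largely by protein stability, was at 966.8, 880.1 and 934.2 CPM in male PGCs, 1176, 1185 and 1234 in male soma, 866.5, 874.6 and 872.7 in female PGCs and 1042, 934.9 and 1214 in female soma. All groups lay within a narrow span, with PGCs below soma of the same sex. The PGC to soma differences were -0.20 ± 0.07 in males (adjusted p = 0.0154) and -0.22 ± 0.07 in females (adjusted p = 0.00912), but with library medians made equal they became 0.04 and -0.02 and did not pass. The male difference also did not pass without male PGC replicate 2 (-0.18, adjusted p = 0.0552), and the female one was -0.14 without female soma replicate 3 (adjusted p = 0.0445). The female to male difference in PGCs, -0.19 ± 0.07 (adjusted p = 0.0297), turned to 0.20 with quantile normalization and did not pass without male PGC replicate 1 or 3 or any 1 of the female PGC replicates (adjusted p 0.0569 to 0.102). That in soma, -0.17 ± 0.07, did not pass (adjusted p = 0.103) except without female soma replicate 3 (-0.25, adjusted p = 0.00584) or with array weights (adjusted p = 0.0217).

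Lef1 and Tcf7 code for DNA-binding partners of beta-catenin, and both were higher in PGCs than in soma in either sex. Lef1 stood at 58.5, 60.8 and 63.9 CPM in male PGCs, 34.1, 44.2 and 40.1 in male soma, 85.4, 74.7 and 100.3 in female PGCs and 54.8, 41.1 and 61.9 in female soma. PGC and soma libraries of a sex did not overlap, with differences of 0.57 ± 0.12 in males (adjusted p = 0.000424) and 0.56 ± 0.12 in females (adjusted p = 0.000522). Female PGCs were above male PGCs in every library, but the difference of 0.27 ± 0.12 did not pass (adjusted p = 0.0554), whereas it did under 9 of 22 alternatives (range of adjusted p 0.0139 to 0.206), among them leaving out female PGC replicate 2 (0.34, adjusted p = 0.0323), female soma replicate 2 (adjusted p = 0.0203) or female soma replicate 3 (adjusted p = 0.0367). In soma the sexes overlapped, at a difference of 0.28 ± 0.12 (adjusted p = 0.0998), which passed without female soma replicate 2 (0.41, adjusted p = 0.0129).

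Tcf7 had 168.4, 157.2 and 177 CPM in male PGCs, 24.4, 24.9 and 27.7 in male soma, 125.4, 120.2 and 138.1 in female PGCs and 47.8, 33.6 and 51.1 in female soma. The groups did not overlap, and the order ran from male PGCs down through female PGCs and female soma to male soma. Male PGCs were 6.53-fold above male soma (2.18 ± 0.10, adjusted p = 1.68e-10) and female PGCs 2.90-fold above female soma (1.2 ± 0.10, adjusted p = 9.14e-08). By read depth, the sex difference had opposite signs in the cell populations, -0.43 ± 0.10 in PGCs (adjusted p = 0.00227) and 0.54 ± 0.10 in soma (adjusted p = 0.00163). Per cell it had the same sign in both and did not pass. It was -0.49 ± 0.29 in PGCs (adjusted p = 0.173) and -0.14 ± 0.29 in soma (adjusted p = 0.674), where the median gene was at -0.86.

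Sp5, coding for a zinc finger transcription factor that is a direct target of Wnt signalling and carries the motif matches printed above, was at 23.9, 31.2 and 30.2 CPM in male PGCs, 2.29, 1.29 and 1.85 in male soma, 55.5, 49.6 and 42.4 in female PGCs and 12.5, 18.4 and 15 in female soma. The PGCs of each sex were above the soma of both sexes in all libraries. Male PGCs exceeded male soma 15.7-fold (2.54 ± 0.14, adjusted p = 7.17e-10) and female PGCs exceeded female soma 3.21-fold (1.22 ± 0.14, adjusted p = 1.86e-06). Female soma was 8.44-fold above male soma (1.80 ± 0.14, adjusted p = 6.7e-07), while female PGCs were 1.73-fold above male PGCs (0.48 ± 0.14, adjusted p = 0.00863). Soma held 6.37% of the PGC level of Sp5 in males and 31.1% in females, and 15.3% and 34.5% of that of Tcf7. The 10 germ cell markers in soma ranged from 0.142% to 2.51% in males and from 1.97% to 64.1%, with a median of 3.66%, in females. Female soma replicate 2, with the most germ marker reads, was the highest for Sp5 and the lowest for Tcf7. The part of germ cell RNA in the soma values was not tested.

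Whether the PGC to soma difference itself differed between the sexes was tested as an interaction. It passed for 8 of the 10 genes, 4 in each direction, beside 56.8% of all genes (27.9% higher and 28.9% lower in females). The difference was more positive in females for Nkd1 (1.52 ± 0.18, adjusted p = 1.34e-05), Notum (0.60 ± 0.21, adjusted p = 0.0253), Axin2 (0.49 ± 0.17, adjusted p = 0.0226) and Znrf3 (0.46 ± 0.13, adjusted p = 0.00832). It was more negative in females for Lgr5 (-2.18 ± 0.40, adjusted p = 0.000444), Sp5 (-1.32 ± 0.20, adjusted p = 8.39e-05), Tcf7 (-0.97 ± 0.15, adjusted p = 8.4e-05) and Rnf43 (-0.86 ± 0.20, adjusted p = 0.00229). Lgr5 and Rnf43 had few reads in PGCs of both sexes, 1 to 33 and 2 to 10 per library. Their female minus male differences were 0.02 and 0.16 in PGCs beside 2.20 and 1.02 in soma, so these 2 interactions largely restate the soma difference with its sign changed. Without the 3 libraries named above 5 passed, and Axin2 (0.35, adjusted p = 0.0661), Notum (0.63, adjusted p = 0.0565) and Znrf3 (0.34, adjusted p = 0.086) did not. Single libraries also decided the Axin2 call, lost without male PGC replicate 2, male soma replicate 2 or 3, or female PGC replicate 1 (adjusted p 0.0505 to 0.053), and the Notum call, lost without male PGC replicate 1 or 3, male soma replicate 2, female PGC replicate 1 or 3, or female soma replicate 2 (adjusted p 0.0527 to 0.065). With quantile normalization, Axin2 was at 0.33 (adjusted p = 0.11) and Notum at 0.13 (adjusted p = 0.618). The Rnf43 interaction did not pass with voom on the recovered reads (-0.95, adjusted p = 0.431), and it changed sign on the per-cell scale.

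The second deposited table scales each library to the number of cells. Its median over all genes put male PGCs 1.42 above male soma and female PGCs 2.36 above female soma on the log2 scale, and female soma 0.86 below male soma (a difference of -0.86). Libraries of a group also differed by shifts of the whole library, with medians of 4.33, 4.29 and 5.25 in male soma. The fit treats genes as independent although they share these shifts, so p-values on this scale may be far too small. In males 9 of the 10 genes passed, 6 higher and 3 lower in PGCs, beside 83.7% of all genes (64% higher and 19.8% lower), and in females all 10 passed, 8 higher and 2 lower, beside 88.8% (77.2% higher and 11.5% lower). Per cell, Axin2 was thus higher in PGCs than in soma in males (1.40 ± 0.29, adjusted p = 2.68e-06), close to the median gene, and in females (2.95 ± 0.29, adjusted p = 1.81e-23). Nkd1 was higher per cell in female PGCs than in female soma (1.14 ± 0.31, adjusted p = 0.000271), although below the median gene, and lower in male PGCs (-2.02 ± 0.31, adjusted p = 1.36e-10). Notum was at 0.15 ± 0.34 in males (adjusted p = 0.67) and 2.02 ± 0.34 in females (adjusted p = 2.88e-09). Sp5 (5.6 ± 0.38 in males and 4.12 ± 0.38 in females) and Tcf7 (4.33 ± 0.29 and 3.98 ± 0.29) were called higher in PGCs in both sexes (adjusted p against 0 at or below 2.99e-26). With library medians made equal, which removes the per-cell shift, Sp5 was at 4.39 in males (adjusted p = 5.08e-10) and 1.92 in females (adjusted p = 3.36e-06), and Tcf7 at 3.12 (adjusted p = 1.19e-10) and 1.78 (adjusted p = 4.41e-08). Lgr5 and Rnf43 were the genes lower in PGCs of both sexes on both scales: per cell, Rnf43 was at -2.85 ± 0.75 in males (adjusted p = 0.000224) and -2.54 ± 0.75 in females (adjusted p = 0.000884), and Lgr5 at -3.81 ± 0.57 in females (adjusted p = 5.85e-11). Lgr5 in males, -1.47 ± 0.57 (adjusted p = 0.0131), did not pass without male soma replicate 3 (-0.91, adjusted p = 0.323) or without male PGC replicate 3 (-0.88, adjusted p = 0.17). Without the 3 libraries named above, 8 passed per cell in males (6 higher and 2 lower) and 10 in females (8 and 2). Sp5 in males was then at 5.95, and its adjusted p rose from 6.76e-47 to 2.97e-10.

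**Figure D4:**
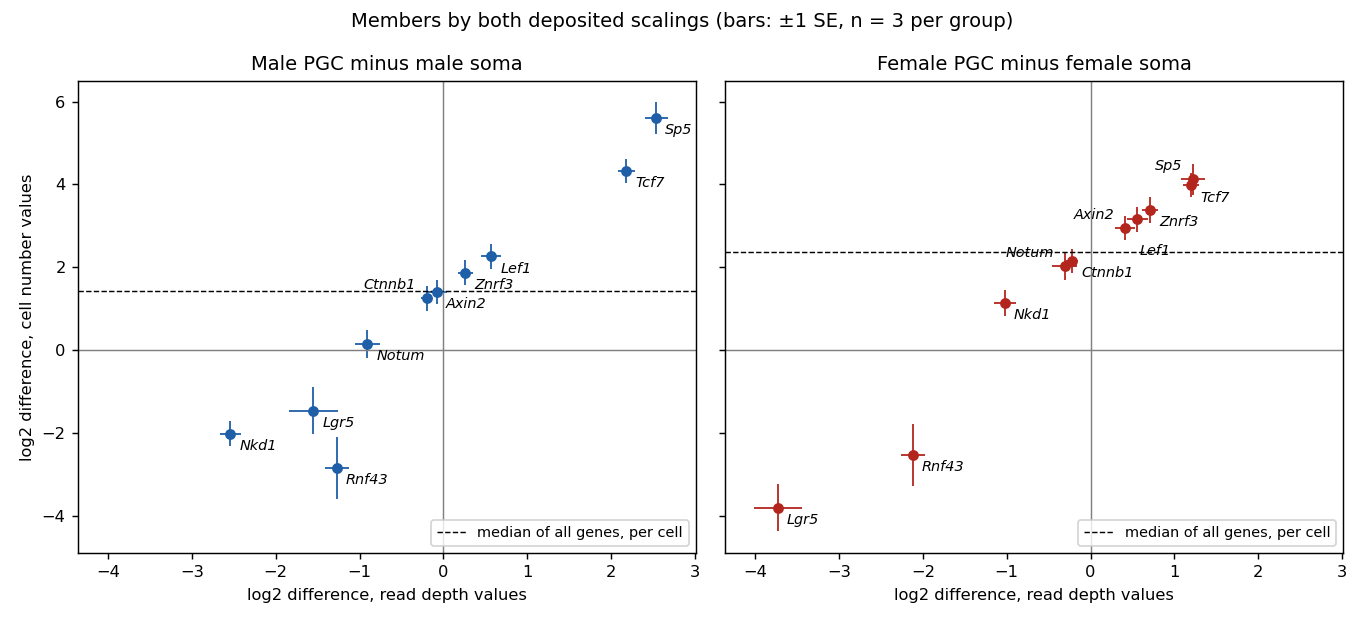
Log2 difference between PGCs and soma of the 10 genes by the read depth table (horizontal) and the cell number table (vertical), in males (left) and females (right), with bars of 1 SE (3 libraries per group). The dashed line is the median of all 12845 genes per cell, 1.42 in males and 2.36 in females; Lgr5 and Rnf43 are below 0 on both axes in both sexes.

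Between the sexes, 4 of the 10 genes passed per cell in PGCs, all higher in females, beside 42.1% of all genes (24.3% higher and 17.7% lower). These were Nkd1 (3.3 ± 0.31, adjusted p = 1.63e-24), Notum (2.63 ± 0.34, adjusted p = 1.16e-13), Axin2 (1.56 ± 0.29, adjusted p = 7.75e-07) and Znrf3 (0.93 ± 0.31, adjusted p = 0.00847), which were higher in female PGCs by read depth too. Without the 3 libraries named above, Nkd1 was at 3.26, with an adjusted p of 1.86e-07. Znrf3 did not pass without male PGC replicate 3 (0.87, adjusted p = 0.051). In soma 4 passed per cell, beside 66.5% of all genes (2.86% higher and 63.6% lower). Lgr5 (2.21 ± 0.57, adjusted p = 0.000841), Sp5 (2.18 ± 0.38, adjusted p = 3.75e-07) and Notum (0.77 ± 0.34, adjusted p = 0.0358) were higher in female soma, and Ctnnb1 was lower (-1.08 ± 0.30, adjusted p = 0.00157), as the median gene was. Axin2 (0.01 ± 0.29, adjusted p = 0.975), Nkd1 (0.12 ± 0.31, adjusted p = 0.725), Rnf43 (0.91 ± 0.75, adjusted p = 0.27) and Tcf7 had passed by read depth but did not pass here. The median gene was at -0.86. Notum did not pass without male soma replicate 1 (0.59, adjusted p = 0.135) or 2 (0.69, adjusted p = 0.0814) or without female soma replicate 1 (0.81, adjusted p = 0.0774) or 3 (0.53, adjusted p = 0.207). Without the 3 libraries named above, 7 passed in soma, 6 higher and 1 lower, and 6 passed in PGCs, 5 higher and 1 lower. The interaction passed for 6 genes per cell, 4 more positive in females and 2 more negative, beside 48% of all genes (42.8% higher and 5.16% lower). The median interaction of all genes was 0.91 on this scale, and that of the 10 genes 0.90. Nkd1, Notum, Axin2 and Znrf3 were more positive in females, and Sp5 and Lgr5 more negative. With quantile normalization, Notum was at 0.13 (adjusted p = 0.738), Axin2 at 0.40 (adjusted p = 0.155) and Znrf3 at 0.46 (adjusted p = 0.0619), none of which passed. Without the 3 libraries named above 7 genes passed, 4 more positive and 3 more negative. The Lgr5 value of -2.34 ± 0.81 (adjusted p = 0.0113) became -1.22 (adjusted p = 0.207) without female PGC replicate 3, which held 1 read of the gene, and -1.70 (adjusted p = 0.0924) without male PGC replicate 1. That of Sp5, -1.49 ± 0.54 (adjusted p = 0.0162), became -1.1 (adjusted p = 0.0682) without male soma replicate 2 and -1.38 (adjusted p = 0.0529) without female PGC replicate 3.

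The rest of the pathway was followed through 136 further genes, of which 111 were measured. By read depth, 29 of them were higher and 70 lower in male PGCs than in male soma, and 26 higher and 73 lower in females. Over all genes, 39.1% were higher and 43.7% lower in males, and 38.7% and 42.3% in females. Between the sexes, 32 were higher and 12 lower in female soma (beside 13.3% and 11% of all genes), and 47 higher and 29 lower in female PGCs (beside 32.8% and 32.5%). The 111 genes were chosen with earlier results known and include the pregranulosa markers Foxl2, Fst, Wnt4, Rspo1 and Irx3. The median difference of the 111 genes was -0.98 and -0.76 for PGCs against soma in males and females, 0.14 for female against male soma and 0.20 for female against male PGCs. The medians of all genes were -0.06, -0.05, 0.01 and 0.01.

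Of 19 Wnt ligand genes 9 were measured. Of these, 8 were lower in PGCs than in soma in each sex, beside 43.7% of all genes in males and 42.3% in females. Wnt5a, a ligand known mainly for signalling outside the beta-catenin route, was highest, at 551.7, 593.4 and 505.3 CPM in male soma and 317.2, 191.2 and 363.5 in female soma, with at most 5.45 in any PGC library. Wnt4 followed at 167.9, 126.1 and 115.8 CPM in male soma and 186.8, 130.7 and 205.2 in female soma, and the sexes overlapped there (0.26 ± 0.18, adjusted p = 0.34). Wnt6 was likewise a soma transcript, at 123.0, 131.1 and 120.6 CPM in males and 115.6, 105.4 and 106.9 in females. Wnt5b, Wnt7a, Wnt9a and Wnt11 were also lower in PGCs than in soma in both sexes, by log2 differences of -0.86 (Wnt9a, males) to -4.06 (Wnt11, females).

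Wnt3 was the exception, since it was found in male PGCs at 65.8, 69.3 and 79.2 CPM, in female PGCs at 5.37, 4.96 and 6.02 and in all 6 soma libraries at 0.667 or less. Male PGCs exceeded male soma by 5.55 ± 0.15 (adjusted p = 1.61e-12), and female PGCs were lower than male PGCs by a log2 difference of -2.96 ± 0.15 (adjusted p = 3.46e-09). Wnt3 met the level of 5.07 CPM in 3 libraries only through male PGCs, which favours both calls. Wnt2b went the other way between the PGCs of the sexes, with 0.526, 0.656 and 0.791 CPM in males and 26.8, 23.4 and 22.8 in females (2.82 ± 0.14, adjusted p = 2.29e-09). It was also higher in female than in male soma, at 46.8, 33.0 and 52.3 against 17.6, 14.6 and 14.9 CPM (1.04 ± 0.14, adjusted p = 8.77e-05).

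The genes for Wnt secretion were divided between the cell populations. Porcn, coding for the enzyme that attaches the lipid to Wnt ligands, was at 98.2, 90.5 and 141.9 CPM in female PGCs and at 13.2 or less in every other library, and female PGCs exceeded male PGCs by 2.59 ± 0.17 (adjusted p = 2.06e-08). Wls, coding for the carrier that brings Wnt ligands to the cell surface, had 128.2, 160.6 and 140.9 CPM in male soma and 141.1, 108.6 and 149.7 in female soma, with 2.94 or less in PGCs. Among R-spondins, Rspo1 was at 77.8, 52.8 and 55.1 CPM in female soma and 18.9, 12.8 and 11.9 in male soma (1.49 ± 0.18, adjusted p = 3.54e-05). In PGCs, Rspo1 was lower in females, at 4.65, 8.83 and 5.93 CPM, than in males, at 17.7, 12.6 and 18.8 (-0.98 ± 0.18, adjusted p = 0.000265), and male PGCs overlapped male soma. Rspo3 was higher in female than in male soma (1.13 ± 0.26, adjusted p = 0.00589), and Rspo4 was low in all groups and higher in PGCs than in soma of both sexes (1.19 ± 0.21 in males, adjusted p = 0.000106, and 1.10 ± 0.21 in females, adjusted p = 0.000241). Lgr4, the R-spondin receptor related to Lgr5, was present in every group, at 135.3 to 199.4 CPM in male PGCs and 75.4 to 91.3 in female PGCs, and was lower in females (-0.88 ± 0.12, adjusted p = 1.61e-05).

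**Figure D5:**
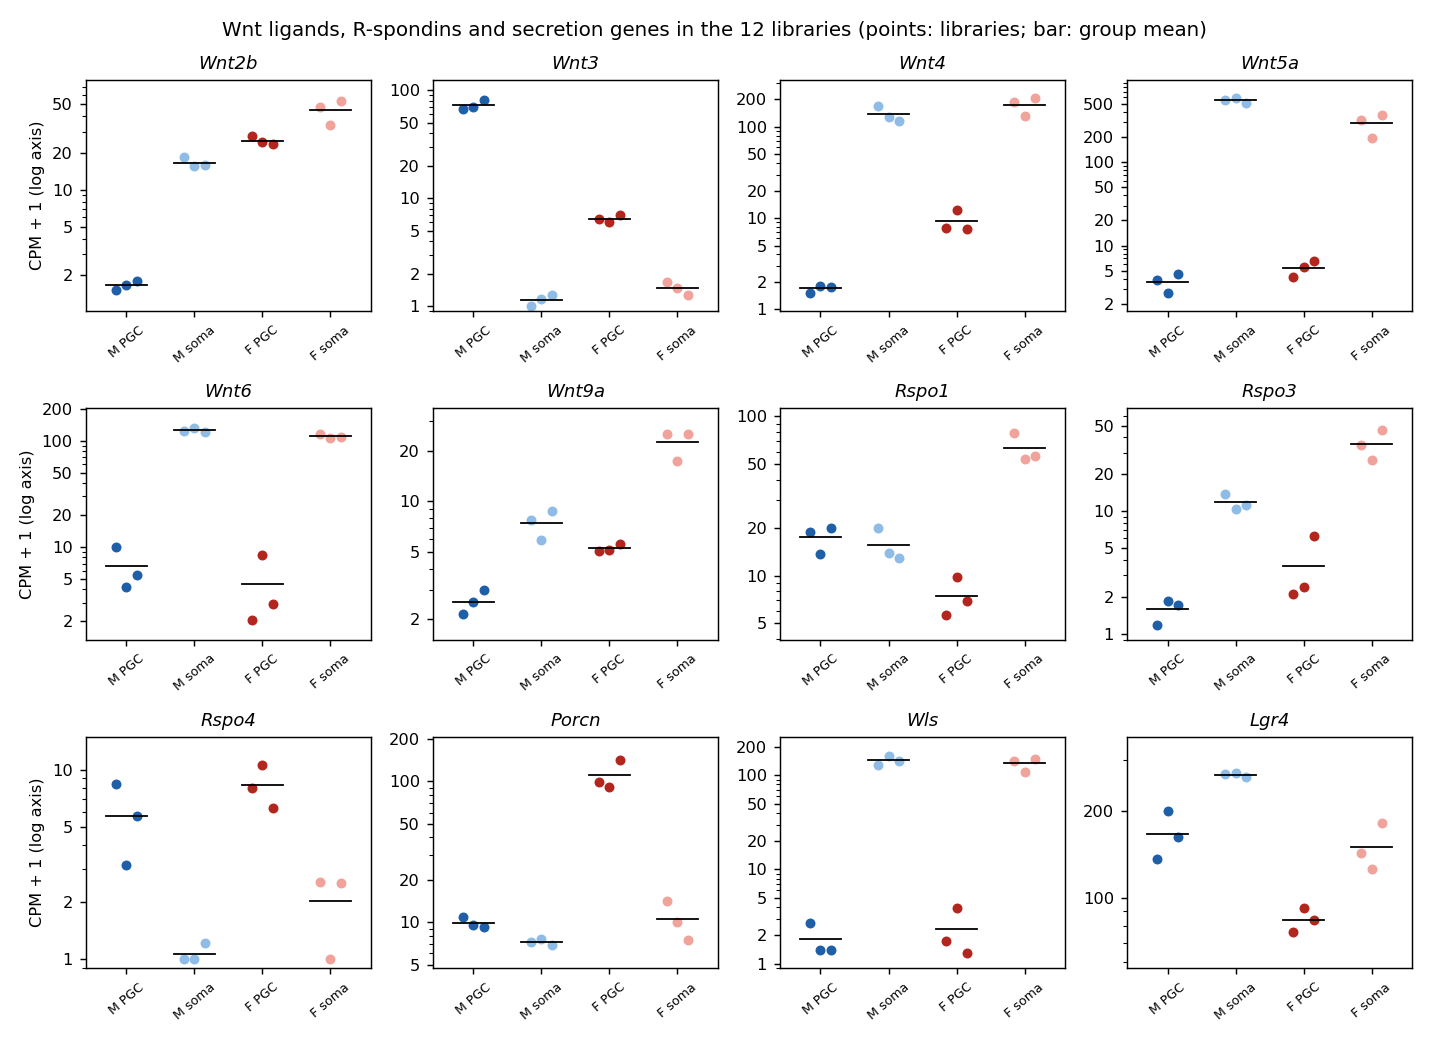
CPM + 1 on a log axis for 6 Wnt ligand genes, 3 R-spondin genes, the secretion genes Porcn and Wls and the receptor gene Lgr4 in the 12 libraries, with 1 point per library and a bar at the mean of the 3 libraries of a group (M, male; F, female). Wnt3 is highest in male PGCs, Porcn in female PGCs, and Wnt4, Wnt5a, Wnt6 and Wls in soma of both sexes.

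Of 14 measured receptor genes, 10 were lower and 3 higher in male PGCs than in male soma, where 43.7% of all genes were lower and 39.1% higher, and 9 were lower and 3 higher in females, beside 42.3% and 38.7%. Fzd1 was lower in PGCs of both sexes (-4.12 ± 0.11 in males, adjusted p = 1.32e-12, and -2.93 ± 0.11 in females, adjusted p = 4.23e-11), whereas Fzd5 was higher (1.77 ± 0.20, adjusted p = 1.38e-06, and 0.96 ± 0.20, adjusted p = 0.000516). Besides Notum, 14 extracellular inhibitor genes were measured, and 12 were lower in PGCs in each sex, beside the same shares of all genes. Sfrp1, coding for a secreted Frizzled-like binder of Wnt ligands, had 626.7, 611.9 and 637.8 CPM in male soma and 71.0, 98.0 and 78.7 in male PGCs. Sostdc1, coding for a secreted antagonist of BMP and Wnt ligands, was nearly a male soma gene alone, at 75.3, 56.3 and 74.3 CPM there, 4.56 or less in female soma and at most 0.155 in PGCs. It met the lowest level of the tabulated genes only through male soma. Apcdd1, coding for a membrane inhibitor of Wnt that is itself a reported target, was higher in females in soma (1.37 ± 0.17, adjusted p = 4.05e-05) and in PGCs (1.14 ± 0.17, adjusted p = 3.69e-05).

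Nkd2, the relative of Nkd1, was also lowest in male PGCs and highest in female soma. It stood at 1.91, 1.07 and 1.41 CPM in male PGCs, 13.1, 13.7 and 17.8 in male soma, 17.3, 16.9 and 14.3 in female PGCs and 60.2, 45.4 and 59.0 in female soma. Female PGCs were above male PGCs by 1.95 ± 0.14 (adjusted p = 4.51e-08), while female PGCs and male soma overlapped. Within the destruction complex, 9 of the 13 genes other than Axin2 were higher and 3 lower in male PGCs than in soma (39.1% and 43.7% of all genes), and 7 higher and 4 lower in females (38.7% and 42.3%). Apc, a scaffold of the complex, was higher in PGCs of both sexes (0.81 ± 0.07, adjusted p = 1.68e-07, in males and 0.89 ± 0.07, adjusted p = 7.43e-08, in females).

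Among the nuclear partners of beta-catenin, Tcf7l2, the TCF family member best known from the intestine, was at 35.5, 39.9 and 47.0 CPM in male soma and 55.0, 41.1 and 48.2 in female soma but at 1.43 or less in every PGC library, the reverse of Tcf7 and Lef1 (-3.39 ± 0.16 in males, adjusted p = 1.65e-10, and -4.36 ± 0.16 in females, adjusted p = 3.86e-11). Tle4, coding for a Groucho corepressor that binds TCF proteins, was higher in PGCs (1.56 ± 0.08, adjusted p = 4.19e-10, and 1.37 ± 0.08, adjusted p = 2.18e-09), and Tle2, another corepressor of that family, was lower (-4.47 ± 0.24, adjusted p = 6.19e-10, and -2.63 ± 0.24, adjusted p = 1.93e-07). Of 17 such genes other than the members, 6 were higher and 11 lower in male PGCs than in soma, and 4 higher and 10 lower in females, beside 39.1% and 43.7% of all genes in males and 38.7% and 42.3% in females.

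Among 30 measured genes reported elsewhere as Wnt targets, 17 were higher and 4 lower in female than in male PGCs. In that comparison 32.8% and 32.5% of all genes were. Between female and male soma, 14 were higher and 2 lower in females, beside 13.3% and 11% of all genes. The list was chosen with earlier results known and holds Foxl2, Fst and Irx3, which are also the pregranulosa markers used here. The soma count is therefore no separate measure of a Wnt response. Against soma, 4 were higher and 18 lower in male PGCs, and 6 higher and 21 lower in female PGCs. Of all genes, 39.1% were higher and 43.7% lower in males, and 38.7% and 42.3% in females. The median difference of the 30 genes against soma was -1.48 in males and -1.46 in females, beside -0.06 and -0.05 for all genes. Cdx2, a homeobox gene of the posterior embryo, was at 55.9, 41.7 and 71.4 CPM in female PGCs and at 2.22 or less elsewhere (4.88 ± 0.39 against male PGCs, adjusted p = 1.38e-07). It thus met the level of 5.07 CPM in 3 libraries only through female PGCs, which favours that call. Msx1, a homeobox gene that also responds to BMP, had 149.0, 145.8 and 152.6 CPM in female PGCs and 1.43, 2.38 and 2.82 in male PGCs (4.46 ± 0.25, adjusted p = 5.61e-09). Irx3, a homeobox gene known in pregranulosa cells, was higher in females in PGCs (3.61 ± 0.20, adjusted p = 6.7e-09) and in soma (4.23 ± 0.20, adjusted p = 6.36e-09). Ccnd1, the cyclin D1 gene, named after its values were seen, had at least 193.8 CPM in every female PGC library against at most 19.5 in male PGCs (2.50 ± 0.06, adjusted p = 1.54e-11). Several of these genes are also regulated by other signals, and which signal set their levels was not tested.

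The genes whose pattern over the 12 libraries was most like that of Axin2 and Lef1 were listed by Pearson's r of log2(CPM + 1), as a description of libraries that share 4 groups and sequencing depth. Nearest to Axin2 were Slc6a17 (r = 0.979), Zswim6 (0.976), Kdm5c (0.972), Myo5a (0.969) and Cables2 (0.965). Nearest to Lef1 were Cbx2 (r = 0.962), Slc39a4 (0.953), Dlg3 (0.951), Shroom2 (0.949) and Lrrc34 (0.947). No other member of the 10 was among either set.

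By position in GENCODE vM21 (GRCm38), the 10 genes are protein-coding and 5 lie on chromosome 11: Znrf3 (5276324 to 5444847, minus strand), Tcf7 (52252371 to 52283014, minus), Rnf43 (87662722 to 87735539, plus), Axin2 (108920349 to 108950783, plus) and Notum (120653788 to 120661175, minus). Sp5 lies on chromosome 2 (70474923 to 70477729, plus), Lef1 on chromosome 3 (131110471 to 131224356, plus), Nkd1 on chromosome 8 (88521354 to 88594884, plus), Ctnnb1 on chromosome 9 (120929216 to 120960507, plus) and Lgr5 on chromosome 10 (115450311 to 115587780, minus).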

How the data were processed

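RNA was measured in 12 libraries of sorted E13.5 mouse gonad cells, 3 per group, grouped and numbered by the sample titles. Per the labels' protocols, libraries came from a directional mRNA kit, with ERCC spike-in RNA added per number of cells. Per the submitters' processing notes, the build was mm10 and the tools were limma 3.28.14, edgeR 3.14.0, DESeq2 1.12.3, R 3.3.0, HTSeq 0.6.1p1, TopHat2 2.0.9 and Trim Galore 0.4.0, with no role stated. How the counting treated strand was not given in the sources used here, so reads of overlapping and antisense genes cannot be told apart.

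The authors deposited 2 tables of log2 values over the same 12845 genes, one taken here as scaled to cell number, from its abbreviated name and from the spike-in added per cell, and one scaled to read depth, whose transform is not given. No spike-in rows were used here. Among the cell number values, 100% equalled log2 of a whole number of reads plus 0.5, scaled per library, within 0.001 reads. These reads gave CPM and depth, and per-kilobase levels used GENCODE vM21 exon lengths. Every gene had at least 5.07 CPM in 3 libraries. Replicate pairs differed beyond sampling noise (chi-square divided by its degrees of freedom, 5.43 to 30.4), and the labels give no batch.

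Both tables were fitted whole with limma 3.58.1 in R 4.3.3 (4 group means, intensity trend, Benjamini-Hochberg adjustment over 12845 genes, threshold 0.05), after the fits were tested on simulated data. The simulated noise was drawn separately for each gene, without a shift shared by a library. Tables were read and figures drawn with Python 3.11.15, pandas 2.3.3, numpy 2.4.6 and matplotlib 3.10.9. The 10 genes and the pathway and marker lists were chosen with earlier results of these data known. The rule named every member, all measured ligands and R-spondins, and from each list the 3 genes highest in CPM and the 3 with the largest differences per comparison. Fzd5, Apc, Tle4, Irx3 and all other pathway genes named fall under it except Ccnd1. Alternatives were median centring, quantile normalization, a filter on the lowest 25% of genes, voom on the recovered reads, a log2 threshold of 1, other variance settings, array weights (whose iteration did not always converge), only the groups compared, a replicate block and leaving out each library; leaving out 3 libraries together was added later.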

Additional observations from a re-analysis of the deposited data

Results flagged for a closer look

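For 8 of the 10 genes the PGC to soma difference was itself different between the sexes in the read depth table, by limma's interaction term, beside 56.8% of all genes. Without the 3 libraries that stood apart 5 passed, and Axin2, Notum and Znrf3 did not. As the female minus the male log2 difference, the values were 1.52 for Nkd1, 0.60 for Notum, 0.49 for Axin2, 0.46 for Znrf3, -0.86 for Rnf43, -0.97 for Tcf7, -1.32 for Sp5 and -2.18 for Lgr5. Those of Lgr5 and Rnf43, with few PGC reads in both sexes, largely restate the soma difference between the sexes with its sign changed.

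Per cell, 6 genes were singled out in the same way, beside 48% of all genes (42.8% higher and 5.16% lower). The values were 3.15 for Nkd1, 1.87 for Notum, 1.55 for Axin2, 1.52 for Znrf3, -1.49 for Sp5 and -2.34 for Lgr5. The median of all genes in this contrast was 0.91. With quantile normalization Notum (0.13), Axin2 (0.40) and Znrf3 (0.46) did not pass.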

How the results depend on the processing

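In the read depth table, requiring a log2 difference of at least 1 left 5 of 9 called genes for PGCs against soma in males, 5 of 9 in females, 4 of 7 between the soma and 3 of 7 between the PGCs of the sexes, and 3 of 8 interactions. Leaving out the 3 libraries that stood apart left 5 of 8 interactions. Per cell, the 4 calls between the soma of the sexes became 7 with quantile normalization, 8 with array weights and 7 without those 3 libraries, and the 4 calls between the PGCs became 7 with median centring, 7 with array weights and 7 when only these groups were fitted. Leaving out each library in turn gave 8 to 9, 9 to 10, 7 to 8, 6 to 8 and 6 to 8 calls by read depth, and 8 to 9, 10 to 10, 3 to 5, 3 to 6 and 4 to 8 per cell, in the same order of comparisons.

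Signs changed as follows. By read depth, Axin2 and Ctnnb1 in male PGCs against soma were 0.17 and 0.04 with median centring, Ctnnb1 between PGCs of the sexes was 0.20 with quantile normalization, and Lgr5 there, never called, was -0.01 with median centring, -0.16 with quantile normalization, -0.13 with voom, -0.19 without the 3 libraries, and -0.19 to 0.37 without single libraries (-0.02, -0.10 and -0.19 where the sign changed). Per cell, in males, Notum was -1.06 with median centring, -0.52 with quantile normalization, and -0.12 to 0.41 without single libraries (-0.12 and -0.02 where the sign changed), while Axin2 was -0.00 and Ctnnb1 -0.58 with quantile normalization. Per cell, in females, median centring and quantile normalization gave -0.18 and -0.39 for Notum, -1.06 and -1.44 for Nkd1 and -0.05 and -0.36 for Ctnnb1. Both settings remove the per-cell shift by construction. The cause of the other changes was not tested. The filter on the lowest 25% of genes dropped Lgr5 and Rnf43.

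Same-numbered libraries did not deviate together (correlations -0.361 to 0.071 by read depth and -0.282 to 0.033 per cell, with 0 of 12 pairs over 0.1 in each), so the numbers were not taken as pairing the samples. With a replicate block, the calls by read depth were 9, 9, 7, 8 and 8, and per cell 9, 10, 4, 4 and 8. Depth limits Lgr5 and Rnf43 in PGCs, where single libraries held as few as 1 and 2 reads.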
